A study of Mus musculus with 42 samples.

Results

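The comparison set untreated late 2-cell mouse embryos, collected 48 h after human chorionic gonadotropin (hCG), against untreated early 2-cell embryos, collected at 34 h. It covered 9514 of the 15737 genes of the RNA-seq table whose symbol is listed once, chosen as all genes with 1 FPKM or more per library at either stage, where FPKM is the fragments per kilobase of exon scaled to the mapped reads of a library. The rows lie on chromosomes 1 to 11, the last of them in part. The series, with 18 RNA-seq samples in 9 groups and 24 H3K27ac samples, asked how NAD+ synthesis and histone acetylation bear on minor zygotic genome activation (ZGA). Only the wild-type (WT) untreated 2-cell groups carry the comparison here. Both came from superovulated ICR females mated with ICR males, an outbred stock, with the hormones PMSG and hCG, and the labels give both groups as untreated. The study's inhibitor cultures had DMSO as their control, and whether the late group, the control of those cultures, received it is not given in the sources used here, so a vehicle present at 1 stage cannot be told apart from the stage. Each group had 2 libraries of 3 pooled embryos. Nothing in the labels says whether the 2 libraries of a group came from separate matings, so a p-value measures the spread between these pools.

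The early 2-cell embryo still runs largely on RNA laid down in the oocyte, while a limited set of genes is already transcribed in minor ZGA. By the late 2-cell stage the major wave has started, in which transcription spreads to many housekeeping genes and to families that mouse embryos use for a short time, such as Zscan4, Tdpoz and Obox, while much of the maternal RNA is degraded. Mouse oocytes are rich in transcripts of a few expanded families, among them the Nlrp, Oas1, Obox and Pramel genes.

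Each deposited value was the sum of 2 libraries and was split into whole reads of a larger library A and a smaller library B, which carry no replicate number. The early libraries held 5639159 and 4643645 reads, of which 45.9% and 46.1% fell on rows that could be split. The late libraries held 6523488 and 4164896 reads, of which 58.1% and 58.2% did. The shares thus differ by stage, and they leave out the reads of rows that could not be split. Across the 9113 genes that could be tested, Pearson's r of log2(FPKM + 1) was 0.901 between the early libraries, 0.793 between the late libraries and between 0.488 and 0.552 across stages. Genes of 1 library share its depth and preparation, so these values describe the libraries only. FPKM are shares of a library, so less RNA per embryo and fewer cells or embryos captured in a library cannot be told apart.

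The stage labels were compared with marker genes. Of 9 genes listed for the oocyte and 2-cell embryo, 8 were in the rows and all 8 were above 1 FPKM. Zp3, which encodes a zona pellucida protein, stood at 35.4 and 25.7 FPKM in the early and 66.2 and 43.7 FPKM in the late libraries. Obox3 stood at 8.61 and 2.43 FPKM early and at 100.7 and 79.8 FPKM late. Zscan4d and Zfp352 also had a higher column value late, while Zp2, Nlrp5, Ooep and Padi6 had a lower one. The summed column value of the 8 was 1089 FPKM per library early and 493 FPKM late. Of 14 markers of cumulus and granulosa cells, 8 were in the rows and 7 of those were under 1 FPKM at both stages. Their summed level was 1.49 and 0.900 FPKM in the early libraries and 0 and 5.34 FPKM in the late libraries. Foxl2, Ptgs2 and Ptx3 had no read, and the late value was all Tnfaip6 in library B. Of 13 sperm markers 3 were in the rows, with sums of 20.8 and 12.9 FPKM early and 39.3 and 36.4 FPKM late, most of it Odf2, whose product is also part of centrosomes. Tssk6, a kinase of spermatids that overlaps Ndufa13 on the opposite strand, had no early read and 3.79 and 7.01 FPKM late and was called higher. Whether other cells contributed to any gene below was not tested beyond these levels.

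Ribosomal protein genes and members of some 2-cell families, above all Tdpoz, were among the genes gained, and oocyte families such as Nlrp and Oas1 among those lost. Of 9113 genes tested with limma on log2(FPKM + 1), 1854 were called (20.3%), of which 1091 were higher in late 2-cell embryos (12.0% of genes tested) and 763 were lower (8.37%) at an adjusted p under 0.05 and an absolute log2 fold change of at least 1. Over all of them the median log2 fold change was -0.06. Every one of these 1854 called genes had both libraries of 1 stage beyond both of the other, against 30.8% of all genes tested with non-overlapping libraries in the higher and 34.0% in the lower direction. The changes were large, with 48.1% of the higher and 36.8% of the lower genes past an absolute log2 fold change of 3. No read was found in either late library for 245 (32.1%) of the lower genes, and no read in either early library for 131 (12.0%) of the higher genes. Among genes that could be split, 10322 and 9665 had a read in the early and 7712 and 8517 in the late libraries. The late libraries thus detected fewer genes, and how much of this is loss of transcripts and how much lower capture was not tested. These counts rest on 2 libraries a stage and on all 4 of them: without late library B limma called 0 genes in either direction, so that every list count below falls to 0 as well, although 3709 genes had an unadjusted p under 0.05, without late library A it called 591 higher and 69 lower, and without early library A or B it called 161 or 141 higher and 902 or 844 lower. With voom on the recovered reads, 671 genes were higher and 624 lower, and with median-ratio size factors the split turned to 581 higher and 821 lower, or 41.4% of calls higher against 58.8%, at a median over all genes of -0.44 on the log2 scale. On that scale each change below would be read against -0.44 in place of -0.06.

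Of the 9514 genes, 5819 reached 1 FPKM at both stages, 1865 only in early and 1830 only in late embryos. Just inside the threshold lay Abhd8 at 1.00 FPKM in late embryos and Gm24826 at 1.00 FPKM in early embryos, and just outside lay Lipe at 0.9996 and Sh2b2 at 0.9993 FPKM. Between the columns, 3060 genes (32.2%) were more than 2-fold higher in late embryos and 3015 (31.7%) more than 2-fold lower. The other 401 genes could not be split into libraries with certainty and were not tested. They include many of the most abundant early transcripts, for which only the value of the column divided by 2 is given.

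**Figure D1:**
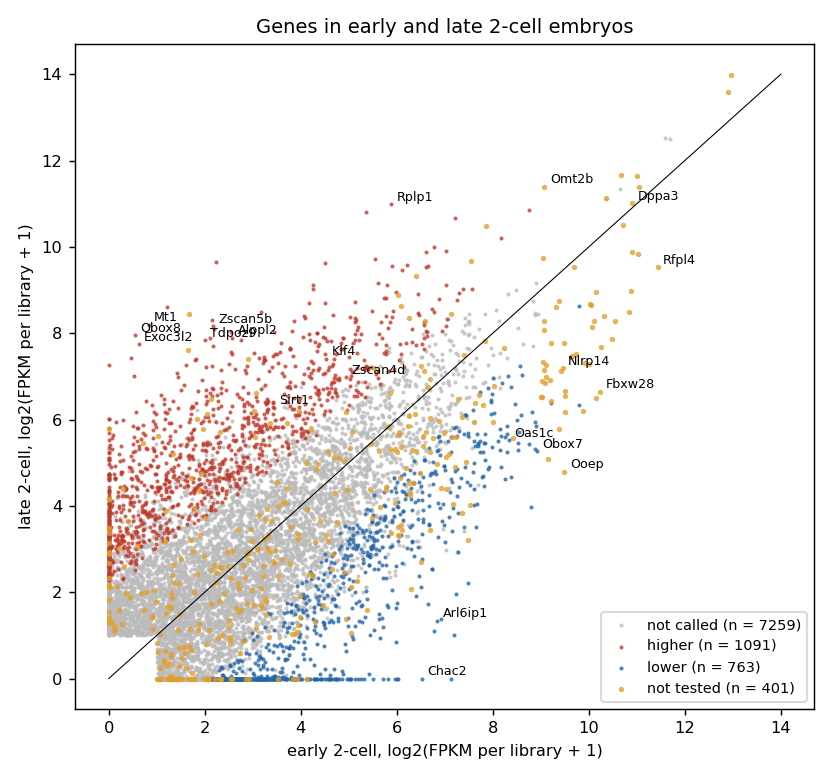
Level of 9514 genes in early (x axis) and late (y axis) 2-cell embryos, each as log2(FPKM per library + 1), with the 1091 genes called higher in red, the 763 called lower in blue, the 7259 not called in grey and the 401 not tested in orange. The line marks equal levels, and genes with no read in late embryos lie along the bottom.

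The genes with the largest gains went from near absence to some of the more abundant transcripts of the late embryo. Mt1, a metallothionein that binds zinc and copper, stood at 1.57 and 0 FPKM in the early and 281 and 299.8 FPKM in the late libraries (log2 fold change 7.51, SE 0.55, limma adjusted p = 0.0114). Exoc3l2, a relative of an exocyst subunit, went from 0.927 and 0.161 to 192 and 235 FPKM. Ppp2cb, a catalytic subunit of protein phosphatase 2A, went from 0.604 and 0.147 to 161 and 182 FPKM. The early libraries of these genes held only a trace of the late level. Gcsh, a protein of the mitochondrial glycine cleavage system, went from 6.29 and 0.818 to 301 and 242 FPKM. Selenos, a selenoprotein of the endoplasmic reticulum, went from 3.72 and 3.21 to 336 and 299 FPKM (log2 fold change 6.16, SE 0.29, limma adjusted p = 0.0114). The early libraries of Gcsh lay further apart than those of Selenos, and neither gene's stages overlapped. Zscan5b, a zinc finger gene of the 2-cell embryo, went from 5.37 and 1.63 to 346 and 222 FPKM. The remaining 6 of the 12 were Obox8, Tdpoz9, Snord55 and the processed pseudogenes Gm9385, Gm48106 and Gm5650. Snord55 is a small nucleolar RNA, a class made from introns of other genes, whose reads may be counted on it. The pseudogenes are copies of spliced transcripts, and reads of the parent genes may be counted on them.

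**Figure D2:**
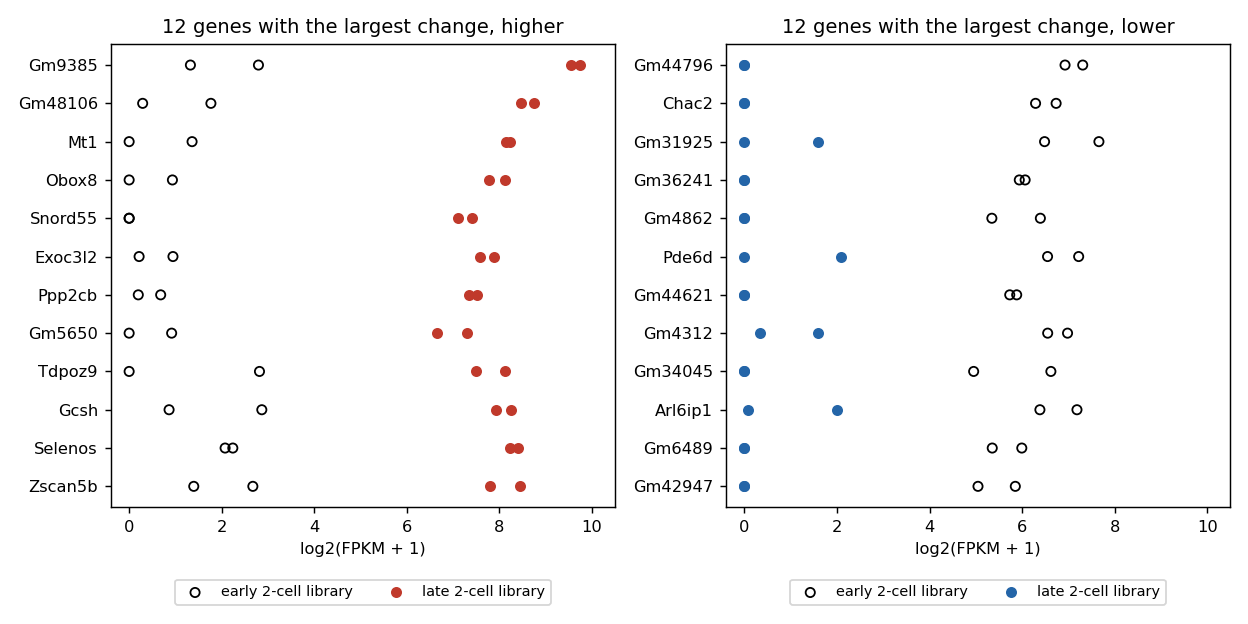
Level of each of the 12 genes with the largest gain (left) and loss (right) among the genes called, on a log2(FPKM + 1) axis, with 1 open circle for each early and 1 filled circle for each late 2-cell library. In all 24 genes the libraries of the stages lie apart, and 8 of the lost genes have no read in either late library.

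The Zscan4 genes, a cluster of zinc finger and SCAN domain genes transcribed in the 2-cell embryo, were already present at 34 h, and 2 of 9 were called higher at 48 h. Their summed level was 262 and 160 FPKM in the early and 683 and 414 FPKM in the late libraries. Zscan4d, the member known from 2-cell embryos, stood at 34.4 and 24.8 FPKM early and at 147 and 104 FPKM late (log2 fold change 2.04, SE 0.33, limma adjusted p = 0.024). Zscan4a was the other member that passed the test, with 13.8 and 8.79 FPKM early and 58.0 and 53.0 FPKM late. None of the 9 was lower, and the median log2 fold change was 1.27. Zscan4f, the most abundant early member, stood at 63.6 and 34.6 FPKM early and 137 and 79.3 FPKM late and was not called (limma adjusted p = 0.144). Zscan4c stood at 30.0 and 21.2 FPKM early and at 126 and 47.7 FPKM late and was not called either. The copies are nearly identical, so the split of reads among them is uncertain. Duxf3, the homeobox gene that drives many 2-cell genes, stood at 1.64 and 2.87 FPKM in the early libraries, and its column at 2.26 FPKM early and 0.589 FPKM late. It could not be tested. Zfp352, a zinc finger gene marking 2-cell embryos, stood at 58.9 and 26.2 FPKM early and at 67.2 and 63.0 FPKM late and was not called.

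The Tdpoz genes encode proteins with TRAF and POZ domains and sit in a cluster on chromosome 3. They showed the highest median fold between the columns among the symbol families with at least 8 members. In the test 6 of 8 were higher and 0 lower, with a median log2 fold change of 3.06. The number of calls fell to 3 with no filter or with voom on library totals, to 2 with a pseudocount of 0.1 and to 0 with voom on size factors, while the median stayed between 2.03 and 3.71. Tdpoz9 rose from 6.04 and 0 FPKM in the early libraries to 275 and 179 FPKM in the late libraries (log2 fold change 6.39, SE 1.00, limma adjusted p = 0.0222). Tdpoz5 went from 7.28 and 4.84 to 87.7 and 74.6 FPKM and Tdpoz7 from 6.93 and 5.26 to 82.0 and 75.6 FPKM. Of the list of other 2-cell genes, 4 of 9 tested were higher and 0 lower. Alppl2, an alkaline phosphatase, rose from 2.52 and 7.35 to 298 and 175 FPKM. Slc34a2, a phosphate transporter, rose from 3.18 and 3.65 to 91.5 and 92.4 FPKM, and Ubtfl1, a relative of an RNA polymerase I factor, from 22.6 and 9.33 to 79.6 and 82.2 FPKM. In each of these genes both late libraries lay above both early libraries. Usp17l deubiquitinases behaved otherwise: of 5 tested 0 were called, with Usp17lb at 30.4 and 21.1 FPKM early and 44.7 and 84.1 FPKM late.

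The Obox homeobox genes split. Of 36 tested 10 were higher and 9 lower, 27.8% and 25%. With voom 6 were higher and 2 lower on library totals and 5 and 2 on size factors, and with no filter 7 and 3. Obox7 fell from 439 and 523 FPKM to 32.2 and 42.9 FPKM (log2 fold change -3.65, SE 0.25, limma adjusted p = 0.0114). The column of Obox1 stood at 1495 FPKM per library early and 311 FPKM late and that of Obox2 at 680.0 and 137 FPKM, and neither could be tested. The other 8 members called lower were all copies named Obox4-ps. In the opposite direction, Obox8 rose from 0.912 and 0 FPKM to 216 and 275 FPKM (log2 fold change 7.47, SE 0.47, limma adjusted p = 0.0114). Obox6, picked after its values were seen, rose from 0 and 4.97 to 185 and 145 FPKM, and Obox3 rose together with 6 copies named Obox3-ps. So the called copies of Obox4 fell and those of Obox3 rose. Such copies may share reads, so the counts of this family may not stand for as many separate changes. Obox5 kept a column value of 831 FPKM early and 740.1 FPKM late. The family's median log2 fold change was -1.51, or -1.31 with members without a read at the limit of 3 reads, and it turned to 0.53 when only genes of at least 5 FPKM were kept.

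The Pramel and Oog genes, oocyte and early embryo genes with leucine-rich repeats, had 8 of 31 tested higher and 9 lower. With either voom fit 1 was higher and 7 lower, and with no filter 4 and 5. Between the columns, 24 of all 48 members fell short of the early level by over 2-fold and 15 exceeded it by as much. Over all genes the shares were 31.7% and 32.2%, so the 15 are near the general share. The median log2 fold of the members was -0.62. Pramel7, picked after its values were seen and known from embryonic stem cells, rose from 2.16 and 0.303 to 86.5 and 89.9 FPKM. Pramel13 fell from 299 and 336 to 102 and 155 FPKM. Oog2 and Oog4 fell, the latter from 226 and 382 to 55.6 and 38.5 FPKM. Oog3, in contrast, had a column value of 1302 FPKM early and 2259 FPKM late and was not tested. The median of 0.19 over the members tested became negative without early library B or late library A.

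The promoters of some of these genes are shown because they hold the motifs whose shares are given further on. Each window covers 250 bases before and 50 after the RefSeq start (GRCm38.p6), 5′ to 3′ on the strand of the gene. In the first 3, capitals mark TAATCC or its reverse complement, the core bound by Obox and Otx type homeodomains. Tdpoz9 (chr3:94054836-94055135, minus strand) holds it 91 bases before the start, and Alppl2 (chr1:87089879-87090178, minus strand) holds the reverse complement 79 bases before the start. Zfp352 (chr4:90218570-90218869, plus strand) holds 9 copies on the strand of the gene, between 227 and 56 bases before the start, the most in any of the 6046 windows of genes tested, where the next highest had 4.
Tdpoz9: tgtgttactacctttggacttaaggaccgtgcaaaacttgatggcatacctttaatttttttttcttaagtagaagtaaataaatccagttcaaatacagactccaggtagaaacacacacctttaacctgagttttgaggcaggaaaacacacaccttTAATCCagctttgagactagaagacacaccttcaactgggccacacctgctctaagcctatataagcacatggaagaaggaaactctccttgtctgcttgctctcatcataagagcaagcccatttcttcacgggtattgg
Alppl2: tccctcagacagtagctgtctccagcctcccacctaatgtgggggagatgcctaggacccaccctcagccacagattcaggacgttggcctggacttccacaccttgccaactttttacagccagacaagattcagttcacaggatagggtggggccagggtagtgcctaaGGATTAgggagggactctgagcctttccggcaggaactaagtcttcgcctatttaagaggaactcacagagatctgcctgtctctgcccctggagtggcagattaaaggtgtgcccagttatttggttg
Zfp352: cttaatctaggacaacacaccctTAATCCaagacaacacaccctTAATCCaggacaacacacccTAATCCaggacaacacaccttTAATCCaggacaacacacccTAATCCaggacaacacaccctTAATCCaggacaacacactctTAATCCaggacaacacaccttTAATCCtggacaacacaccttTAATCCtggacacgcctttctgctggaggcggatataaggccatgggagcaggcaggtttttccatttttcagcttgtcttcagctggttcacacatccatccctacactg
Zscan4c (chr7:11005495-11005794, plus strand) is shown for the Dux motif TGATTNAAT, in capitals, which starts 184 bases before the start. The windows of Zscan4b and Zscan4f also hold it and that of Zscan4d does not.
Zscan4c: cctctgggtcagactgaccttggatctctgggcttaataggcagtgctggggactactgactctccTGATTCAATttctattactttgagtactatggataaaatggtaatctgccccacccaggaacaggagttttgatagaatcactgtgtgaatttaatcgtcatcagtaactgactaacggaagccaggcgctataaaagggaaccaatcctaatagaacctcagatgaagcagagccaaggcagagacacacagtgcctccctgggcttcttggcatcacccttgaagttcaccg

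Genes of the cytosolic ribosome were gained together. Of 53 cytosolic ribosomal protein genes, all of them tested, 39 (73.6%) were higher and 0 lower, with a median log2 fold change of 3.15, ranging from 2.64 to 3.24 over the 4 pairings of an early with a late library. Their summed level was 1544 and 1458 FPKM in the early and 10600 and 10492 FPKM in the late libraries. Rplp1, an acidic protein of the ribosomal stalk, rose from 74.3 and 42.3 FPKM to 2030 and 2030 FPKM (log2 fold change 5.15, SE 0.31, limma adjusted p = 0.0114). Rps27l rose from 126 and 91.6 to 1177 and 872 FPKM and Rplp0, the stalk base, from 143 and 89.0 to 408 and 478 FPKM. Rpl4, one of the more abundant early members, stood at 167 and 172 FPKM early and 369.6 and 277 FPKM late and was not called (limma adjusted p = 0.0509). In all of these the late libraries lay above the early ones. Rps27, picked after its values were seen, had the largest fold of the list, from 3.06 and 0.413 to 119 and 133 FPKM. Among 83 processed pseudogenes named for ribosomal proteins, 42 were higher and 2 lower, and the reads of these copies and of their parents cannot be kept apart with certainty.

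Genes that build ribosomes moved the same way in smaller number. Of 41 ribosome biogenesis genes tested 15 (36.6%) were higher and 1 (2.44%) lower, with a median log2 fold change of 1.41, and 9 were higher with voom on size factors. Imp3, a subunit of the small-subunit processome, rose from 151 and 107 to 634 and 472 FPKM, and Nip7, a factor for the large subunit, from 10.0 and 13.6 to 187 and 115 FPKM. Box C/D and H/ACA particle genes were among those higher: Fbl, Nop56, Nop58 and Gar1 all rose, a choice made after their values were seen. Nop56 stood at 17.3 and 17.5 FPKM early and at 111 and 135 FPKM late. Mphosph10, a partner of Imp3, went the other way, from 113 and 121 to 54.6 and 41.0 FPKM. Npm1, the abundant nucleolar chaperone, had a column value of 1074 FPKM early and 280.1 FPKM late and could not be tested. Mitochondrial ribosomal proteins showed no such shift. Of 44 tested 5 were higher and 5 lower (11.4% each), the latter including the processed pseudogene Mrpl48-ps. The median log2 fold change was -0.42. These counts ranged from 2 in each direction with voom on library totals to 9 at a minimum of 5 FPKM. Mrps33 fell from 127 and 141 to 14.2 and 10.51 FPKM, while Mrpl34 rose from 44.4 and 24.1 to 163 and 295 FPKM.

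Components of the transcription machinery were also gained. Of 40 RNA polymerase II, Mediator and general transcription factor genes tested 11 (27.5%) were higher and 1 (2.5%) lower, with a median log2 fold change of 0.70. Without the filter 5 were higher, and with voom on size factors 10 were higher and 4 lower. Med29, a Mediator subunit, rose from 4.15 and 2.02 to 153 and 145 FPKM (log2 fold change 5.25, SE 0.40, limma adjusted p = 0.0114). Med27 rose from 63.5 and 29.9 to 233 and 198 FPKM and Polr2c, a core polymerase subunit, from 85.6 and 57.9 to 185 and 253 FPKM. The single lower member was Gtf2b, the general factor TFIIB, which fell from 234 and 393 to 52.1 and 22.0 FPKM. Translation initiation factors had 8 of 34 higher (23.5%) and 2 lower (5.88%), or 4 and 0 with no filter. Eif3i rose from 71.9 and 48.3 to 149 and 137 FPKM. The lower ones were Eif4e3 and Eif4enif1, a binding partner of the cap protein that keeps maternal mRNA inactive, at 176 and 182 FPKM early and 37.6 and 63.9 FPKM late. Eif1b, not tested, had a column value of 726 FPKM early and 71.3 FPKM late.

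Cell cycle and metabolic genes changed member by member. Of 23 cyclins and mitotic regulators tested 5 were higher (21.7%) and 3 lower (13.0%), or 3 and 2 with no filter. Over all genes tested the shares were 12.0% and 8.37%. Ccna2, the S and G2 phase cyclin, rose from 37.2 and 32.8 to 292 and 242 FPKM (log2 fold change 2.89, SE 0.24, limma adjusted p = 0.0114), and Ube2c, an enzyme of the anaphase-promoting complex, from 66.3 and 66.0 to 179 and 246 FPKM. Aurka, Cdc20 and Wee2 were not called. Ccne1, Cdk1 and Cdk2 rose while Cdc25b, Chek1 and Fzr1 fell, all picked after their values were seen. Ccne1 stood at 6.13 and 3.80 FPKM early and at 207 and 157 FPKM late, and Cdc25b at 64.7 and 59.4 FPKM early and at 3.54 and 6.57 FPKM late. Among DNA replication genes 4 of 24 were higher (16.7%) and 1 lower (4.17%). The counts were 2 and 3 with voom on library totals and 1 and 3 on size factors. Orc6 rose from 109 and 135 to 262 and 263 FPKM and Pcna, the sliding clamp, fell from 338 and 329.9 to 97.5 and 117 FPKM.

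In purine and pyrimidine synthesis 4 of 14 were higher (28.6%) and 1 lower (7.14%), against 12.0% and 8.37% of all genes tested. With either voom fit, no filter or a pseudocount of 0.1, 2 were higher. Ppat, the first committed enzyme of purine synthesis, rose from 5.74 and 0.438 to 76.7 and 84.4 FPKM, while Adss, which leads to AMP, fell from 216 and 209.8 to 37.7 and 35.8 FPKM. Ppat overlaps Paics on the opposite strand. In cholesterol synthesis 3 of 11 were higher (27.3%) and 0 lower, or 1 and 0 with no filter. Mvk, mevalonate kinase, went from 0.199 and 0 to 18.3 and 29.7 FPKM. Oxidative phosphorylation genes were mixed, with 5 of 54 higher (9.26%) and 7 lower (13.0%), or 2 and 4 with no filter or voom on library totals. Of the NAD synthesis and sirtuin genes, the pathway of the study, 2 of 9 tested were higher (22.2%) and 0 lower. Sirt1, an NAD+-dependent deacetylase, rose from 13.5 and 6.18 to 86.6 and 66.2 FPKM (log2 fold change 2.91, SE 0.47, limma adjusted p = 0.0233), and Nmnat1, the nuclear enzyme that makes NAD+ from NMN, from 2.10 and 0.993 to 15.1 and 33.8 FPKM. Sirt1 was called in all fits on 4 libraries, and Nmnat1 lost its call with no filter (limma adjusted p = 0.0504) and with either voom fit. Sirt4, Sirt6 and Nadk were not called. Hdac1, a zinc-dependent histone deacetylase, rose from 2.88 and 0.625 to 31.8 and 17.5 FPKM, while Hdac2 stood at 27.8 and 16.2 FPKM early and at 17.7 and 14.1 FPKM late without a call.

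Among pluripotency and lineage factors 3 of 14 were higher (21.4%) and 1 lower (7.14%), against 12.0% and 8.37% of all genes tested. Klf4, a zinc finger factor of the pluripotency network, rose from 20.9 and 23.2 to 163 and 174 FPKM (log2 fold change 2.88, SE 0.25, limma adjusted p = 0.0114). Klf17, a factor of 2-cell embryos, stood at 414 and 504 FPKM early and at 426 and 434 FPKM late, with overlapping libraries. Tead4, picked after its values were seen and known for its role in the trophectoderm, had no early read and 11.04 and 19.4 FPKM late. In the DNA methylation list 1 of 6 tested was lower (16.7%) and 0 higher. Tet3, the dioxygenase active on the paternal genome of the zygote, fell from 47.9 and 50.0 to 10.1 and 14.2 FPKM. Dppa3, which protects maternal methylation, had a column value of 1911 FPKM early and 2058 FPKM late and was not tested.

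The genes with the largest losses included few with a well-known name. Chac2, an enzyme of glutathione breakdown, stood at 77.3 and 105 FPKM in the early libraries and had no read in either late library (limma adjusted p = 0.0114), at least 428-fold lower at the limit of 3 reads over both late libraries. It overlaps Asb3 on the opposite strand. Arl6ip1, a shaping protein of the endoplasmic reticulum, fell from 82.5 and 144 to 0.0618 and 2.999 FPKM (log2 fold change -5.74, SE 0.77, limma adjusted p = 0.0172). Pde6d, a carrier of prenylated proteins, fell from 92.7 and 148 to 3.24 and 0 FPKM. In all of them the late value was a trace of the early one. The other 9 were listed only under clone names, 4 of them long intergenic RNAs. Gm44796, a processed transcript on chromosome 7, went from 121 and 158 FPKM to no read, at least 310.3-fold lower. Gm31925, a long intergenic RNA on chromosome 1, went from 88.6 and 201 to 0 and 2.03 FPKM. Gm34045, another on chromosome 10, stood at 30.0 and 97.4 FPKM early and had no late read, at least 224-fold lower. In FPKM the largest losses were in abundant transcripts that could not be tested. Rfpl4, an oocyte RING finger gene, had a column value of 2760 FPKM per library early and 738 FPKM late, Trim61 1874 and 502 FPKM, Bcl2l10, an anti-apoptotic gene of the oocyte, 2081 and 919 FPKM, and Ldhb, the lactate dehydrogenase subunit of the oocyte, 1904 and 938 FPKM. All of these stayed above most other genes of the late embryo.

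Oocyte families fell as groups. Of 9 Nlrp genes tested, NOD-like receptor relatives of the oocyte, 8 were lower (88.9%) and 0 higher, with a median log2 fold change of -2.53, or -2.43 with the member without a late read at the limit of 3 reads. With no filter 5 of the 9 were lower. Nlrp4a fell from 172 and 215 to 27.4 and 34.3 FPKM (log2 fold change -2.61, SE 0.28, limma adjusted p = 0.0123), and Nlrp9c from 134 and 145 to 46.6 and 27.9 FPKM. Nlrp14, the most abundant member, had a column value of 700.4 FPKM early and 144 FPKM late. The member not called was Nlrp2, at 14.05 and 14.05 FPKM early and 7.43 and 8.21 FPKM late. Of 4 Oas1 genes tested, relatives of an antiviral enzyme, 3 were lower and 0 higher, and Oas1c fell from 312 and 333 to 39.8 and 49.8 FPKM (log2 fold change -2.83, SE 0.23, limma adjusted p = 0.0114). Oas1d, with a column value of 632 FPKM early and 387 FPKM late, kept the most. The oocyte Fbxw genes, which encode F-box proteins, had 2 of 12 lower (16.7%) and 0 higher and a median of -2.54. At a minimum of 5 FPKM or a pseudocount of 5, 4 were lower. Between the columns 13 of 15 members were over 2-fold lower, against 31.7% of all genes. Fbxw15 fell from 197 and 254 to 24.9 and 17.0 FPKM. Fbxw28, not tested, had a column value of 1204 FPKM early and 99.2 FPKM late, and Fbxw14 1129 and 89.9 FPKM. So the fall of this family rests mostly on the columns, since few members passed the test.

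Genes of the subcortical maternal complex, which the oocyte needs for the first divisions, fell less evenly. Of 5 tested 1 was lower, Nlrp5, which went from 72.9 and 88.4 to 25.05 and 27.0 FPKM (limma adjusted p = 0.028). Padi6 stood at 114 and 141 FPKM early and 82.8 and 52.7 FPKM late and Tle6 at 72.0 and 109.9 FPKM early and 75.5 and 77.2 FPKM late, both without a call. Ooep, not tested, had the steepest fall of the complex, with a column value of 719.9 FPKM early and 26.8 FPKM late. Among oocyte growth factors, zona genes and regulators 4 of 13 were lower (30.8%) and 1 higher, or 2 and 1 with voom on library totals. The 4 lower were the transcription factors Nobox, Lhx8 and Figla and the receptor Kit, named after their values were seen. Nobox fell from 172 and 217 to 11.5 and 19.0 FPKM. The higher one, Omt2a, rose from 528 and 332 to 1853 and 1819 FPKM, and its neighbour Omt2b, not tested, had a column value of 539 FPKM early and 2676 FPKM late. The rest of this list did not move as one. Between the columns, 10 of its 18 members were over 2-fold lower and 2 over 2-fold higher, against 31.7% and 32.2% of all genes.

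Of 17 genes for the storage and decay of maternal mRNA, 6 were lower (35.3%) and 0 higher, with a median log2 fold change of -0.61. Only 1 was lower without the filter, and 2 were with a pseudocount of 0.1. Zar1, which binds and stores maternal mRNA, fell from 110.1 and 242 to 12.5 and 32.8 FPKM (limma adjusted p = 0.0397). Pabpc1l, the poly(A)-binding protein of the oocyte and named after its values were seen, fell from 101.4 and 109 to 3.77 and 5.91 FPKM. Cnot7, a deadenylase subunit, stood at 141 and 102 FPKM early and 205 and 158 FPKM late without a call. Btg4, the adaptor that brings the deadenylase to maternal mRNA, had a column value of 1685 FPKM early and 1461 FPKM late and was not tested. Slbp, which handles histone mRNA, had 341 FPKM early and 46.9 FPKM late. Between the columns, 9 of 20 members were over 2-fold lower and 1 over 2-fold higher, against 31.7% and 32.2% of all genes. Thus members of this list ranged from a near full loss to a gain.

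**Figure D3:**
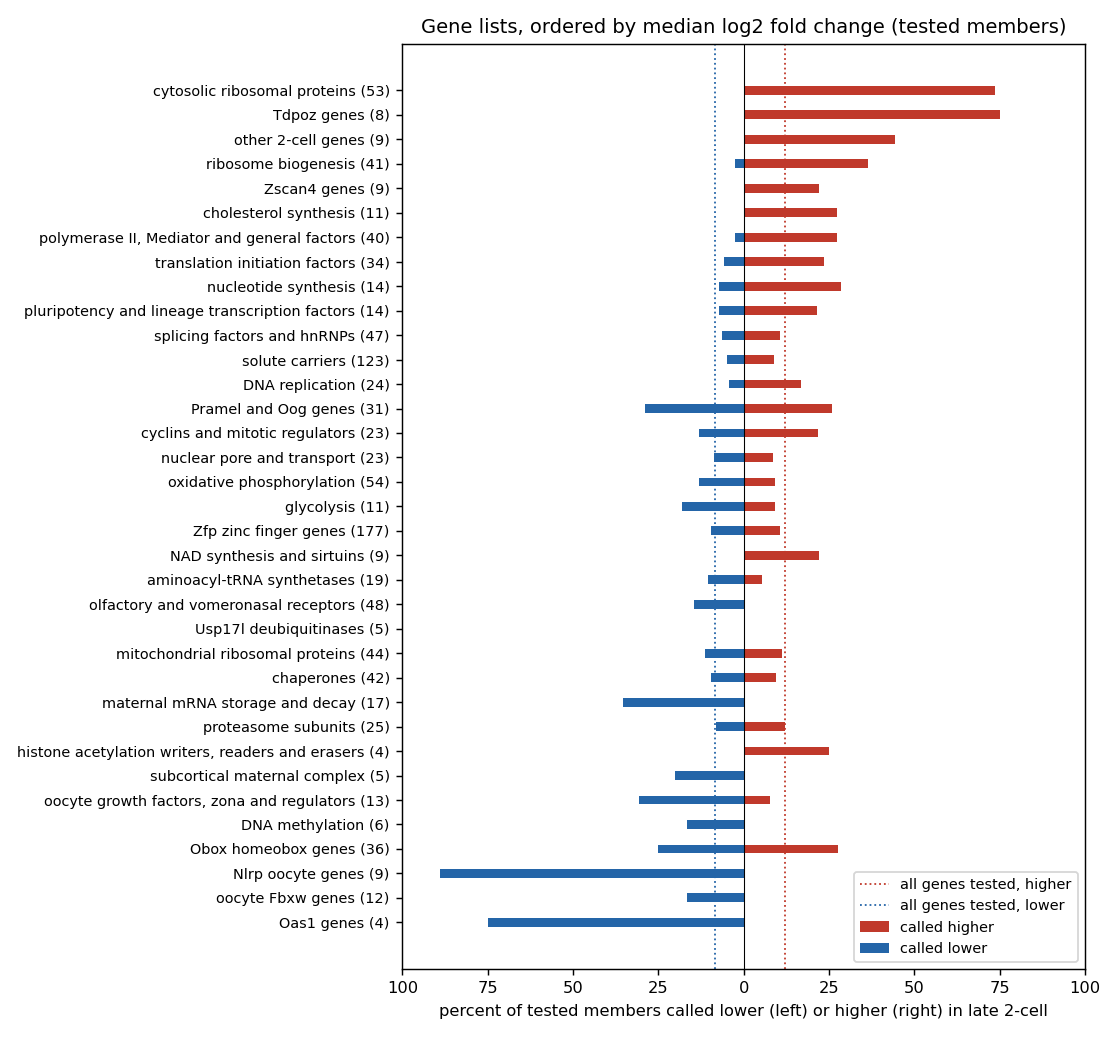
Percent of tested members of each list that were called lower (blue, to the left) or higher (red, to the right) in late 2-cell embryos, with the number tested in brackets and the lists ordered by median log2 fold change. Dotted lines mark the share of all genes tested, 12.0% higher and 8.37% lower, and the ribosomal protein and Tdpoz lists reach furthest right and the Nlrp list furthest left.

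Other lists had few calls in either direction. Splicing factors had 5 of 47 higher and 3 lower, nuclear pore and transport genes 2 of 23 in each direction, the proteasome 3 of 25 higher and 2 lower, chaperones 4 of 42 in each direction, aminoacyl-tRNA synthetases 1 of 19 higher and 2 lower, glycolysis 1 of 11 higher and 2 lower, and Zfp zinc finger genes 19 of 177 higher and 17 lower. Solute carriers had 11 of 123 higher (8.94%) and 6 lower (4.88%). Olfactory and vomeronasal receptors, genes of the sense of smell, had 7 of 48 lower (14.6%) and 0 higher. Olfr976 fell from 23.0 and 43.4 to 1.63 and 0.142 FPKM and Vmn1r112 from 18.1 and 22.2 FPKM to no read, at least 64.0-fold lower. Histone acetylation genes had 1 of 4 higher, Hdac1, and 0 lower, and with no filter, a pseudocount of 0.1 or either voom fit none was called.

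A screen of all 113 symbol stems with at least 8 members placed Rgs at the low end and Tdpoz at the high end. Rgs proteins shorten signalling through G proteins, and 6 of the 8 members were lower and 0 higher. Rgs2 stood at 384 and 509 FPKM in the early libraries, and its column at 447 FPKM early and 14.6 FPKM late (log2 fold change -4.93, limma adjusted p = 0.0114). Rgs17 and Rgs10 fell as well and Rgs16 was not called. After Rgs came Nlrp, Fbxw and Obox among the low stems, and after Tdpoz came Rps, Mir, AU and Rpl among the high ones. Neighbouring genes also changed together, a pattern looked for after the values were seen. A run of 8 neighbouring tested genes at chr10:100330540-100367412, Gm8701 to Gm4308, was lower throughout, from 49.4 to 177 FPKM early and from 0.934 to 3.60 FPKM late. A run of 8 at chr2:83915079-83993045, Zswim2 to Gm13691, was higher throughout, with 0 to 15.9 FPKM early and 3.90 to 131 FPKM late. A run of 5 at chr7:50949294-50986908, Gm21032 to Gm21036, was lower, with 12.5 to 44.8 FPKM early and 0.644 to 1.38 FPKM late. Genes in such runs carry serial clone names and may be close copies whose reads were shared among them.

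The 4 most abundant rows of both stages were among 7 unprocessed pseudogenes at chr1:24611535-24616197, a stretch of nuclear DNA copied from the mitochondrial genome. Gm10925 had a column value of 7943 FPKM early and 16290 FPKM late and Gm28661 7644 and 12326 FPKM. Gm28438, which could be split, stood at 3862 and 2774 FPKM early and 6139 and 5439 FPKM late and was not called, since its log2 fold change was below 1. Reads from mitochondrial transcripts may be counted here, so these values are not those of nuclear genes with any certainty.

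The called genes differed in kind. Protein-coding genes made up 74.6% of the higher and 72.1% of the lower genes. Of 975 processed pseudogenes tested 17.6% were higher and 5.54% lower, while of 545 long intergenic RNAs 5.87% were higher and 10.8% lower. Among protein-coding genes the median exon length was 3186 bases for the 814 higher, 3452 bases for the 550 lower and 4371 bases for those not called, and the median gene span was 12.7 kb, 22.8 kb and 25.8 kb. So the genes gained had the shortest span, and both sets were shorter than the rest. Exon length enters FPKM and the number of reads behind a value, and its part in these differences was not tested.

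Promoters were compared for the 6046 genes tested with a RefSeq window. The ratio of observed to expected CpG was at least 0.6 in 75.6% of the 716 windows of higher genes, 56.5% of the 515 windows of lower genes and 66.8% of all windows. Among genes lower by more than 3 on the log2 scale it fell to 44.8%. Among genes higher by more than 3 it was 66.1%, near the share of all windows. The motif TAATCC was present on either strand in 9.64% of the windows of higher genes, 4.27% of lower genes and 6.33% of all genes tested. The ETS motif CCGGAAG was present in 24.9%, 15.5% and 17.6% in the same order. It was in 18.8% of the windows of genes higher by more than 3 on the log2 scale. TATAAA went the other way, with 6.01% of higher, 9.13% of lower and 8.07% of all windows. Among protein-coding genes alone it was in 6.01%, 7.89% and 7.55%, so there the lower share was close to that of all. The Dux motif TGATTNAAT was rare, in 0.419% of higher, 1.36% of lower and 0.447% of all windows. These were only 3, 7 and 27 windows. CCAAT, the NFY motif, was in 38.3%, 40.8% and 38.9%, GGGCGG, the SP and KLF motif, in 58.8%, 52.2% and 59.3%, AAGATGGCG, the YY1 motif, in 3.21%, 2.14% and 2.88%, and GCGCATGCG, the NRF1 motif, in 3.49%, 3.88% and 3.80%. None of the 8 motifs contains another, though neighbouring matches may share bases. These shares were not tested, and a match is not evidence of binding. The GENCODE gene that the reads were counted on has its 5′ end inside the RefSeq window for 77.7% of all windows, 80.2% of those of higher and 77.9% of those of lower genes. The window of Olfr976 (chr9:39960995-39961294, minus strand), with 5 copies of TATAAA in capitals, is shown for a lost gene, with its RefSeq start 89 bases downstream of the GENCODE 5′ end.
Olfr976: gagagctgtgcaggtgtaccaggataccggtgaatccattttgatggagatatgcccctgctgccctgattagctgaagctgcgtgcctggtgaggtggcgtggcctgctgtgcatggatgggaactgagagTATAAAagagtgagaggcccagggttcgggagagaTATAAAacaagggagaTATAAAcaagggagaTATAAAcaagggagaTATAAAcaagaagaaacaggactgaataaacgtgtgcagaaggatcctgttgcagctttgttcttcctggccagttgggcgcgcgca

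**Figure D4:**
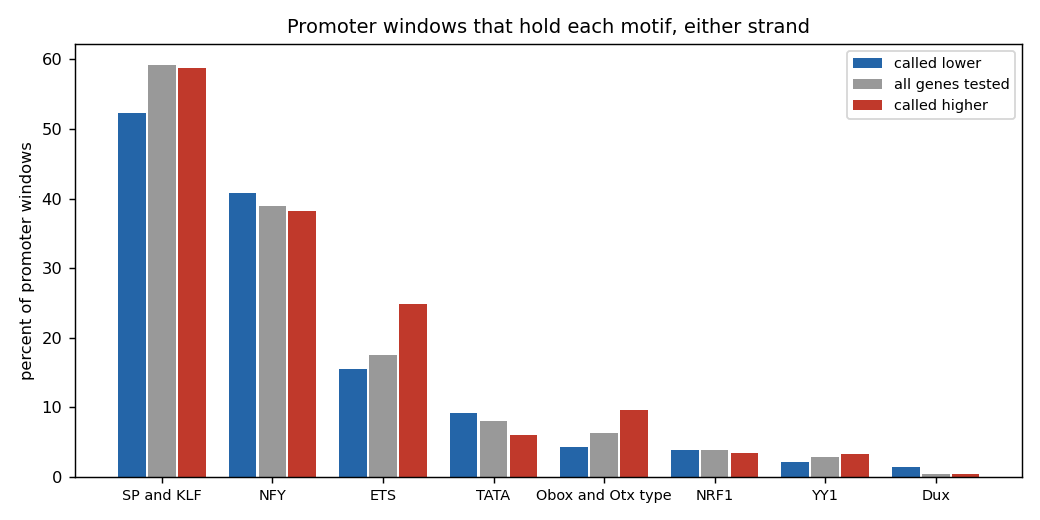
Percent of promoter windows (250 bases before to 50 after the RefSeq start) that hold each of 8 motifs on either strand, for genes called lower (blue, 515 windows), all genes tested (grey, 6046) and genes called higher (red, 716). The ETS and the Obox and Otx type bars are highest for genes called higher, and the TATA bar is highest for genes called lower.

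Levels at the 4-cell stage (58 h) are given beside these as a description, since they share the early and late libraries with the comparison above. For the column headed 4-cell control, a table published with the study and the header name different groups, so the column that this table treats as the 4-cell control, headed late 2-cell TSA, is given second. The genes called higher had a median of 2.80 FPKM in early, 34.0 in late and 33.1 or 29.2 in 4-cell embryos. The genes called lower had 23.0, 1.57 and 1.00 or 0.280 FPKM. The families differed in what followed. Summed FPKM of the ribosomal proteins was 1501 early, 10546 late and 25579 or 31218 at the 4-cell stage, whereas the Zscan4 genes had 211, 549 and 51.6 or 14.4 FPKM. Tdpoz genes stood at 25.1, 663 and 326 or 285 FPKM. The Nlrp genes went on from 1734 and 367 to 45.2 or 6.34 FPKM and the Oas1 genes from 1989 and 566 to 37.0 or 6.10 FPKM. Obox8 had 246 FPKM late and 629 or 630 FPKM at the 4-cell stage, and Sirt1 76.4 FPKM late and 72.0 or 69.6 FPKM. The ribosomal protein genes were thus higher and the Zscan4 genes lower in either candidate for the 4-cell column than in late 2-cell embryos, with no test.

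**Figure D5:**
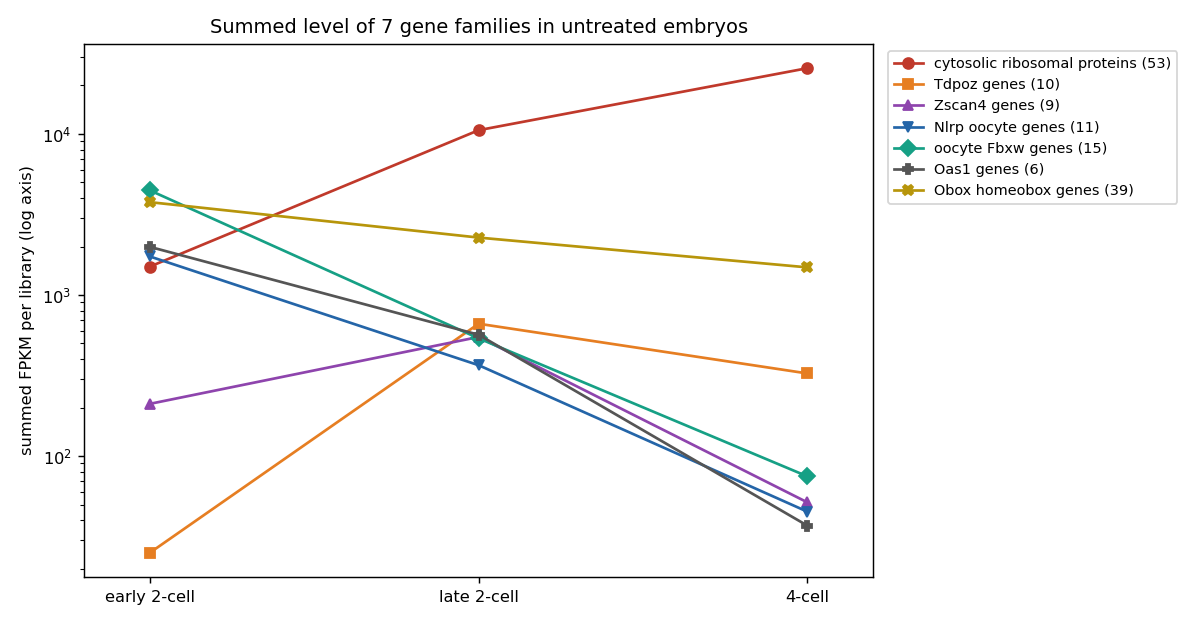
Summed FPKM per library of the members of 7 gene families (number in brackets) at the early and late 2-cell and the 4-cell stage, on a log axis, each point being a column of the table divided by 2, with the column headed 4-cell control for the last stage. The ribosomal protein line climbs throughout, the Zscan4 and Tdpoz lines peak at the late 2-cell stage, and the Nlrp, Fbxw and Oas1 lines fall at both steps.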

How the data were processed

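RNA-seq libraries were made from pools of 3 embryos, with 2 libraries per group. The authors ran Trim Galore, HISAT2 against mm10 and featureCounts, and deposited FPKM in 1 column per group, with base calling by CASAVA 1.4 per the labels. Values multiplied by exon length (GENCODE M21, GRCm38) fall on whole multiples of 2 steps per column, 1 for each library, so each column is a sum and was divided by 2. Reads of each library were recovered for 96.7% of early and 97.7% of late values above 0. Genes with several (125 members) or no exact solutions, or without an exon length (91), were not tested. Library totals ranged from 4164896 to 6523488 reads, and limits from 3 reads cover counting error only. Symbols listed more than once were left out. No column of per-sample values went unmapped, and the H3K27ac samples were not analysed.

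limma 3.58.1 in R 4.3.3 (trended moderated test, Benjamini-Hochberg over all 9113 genes tested) was run on log2(FPKM + 1) of the 4 libraries, for genes with at least 1 FPKM at either stage. The pseudocount understates the change of low genes. FPKM are not counts, so no count test is the main result, and voom on recovered reads is an alternative. Splitting and fitting were tested on simulated data. Alternatives were pseudocounts of 0.1 and 5, other minimum levels, centring, voom and leaving out each library. Promoters were matched by symbol to RefSeq (GRCm38.p6) for 6046 genes. Named genes were the 12 largest called changes and 10 largest FPKM differences per direction, up to 5 most abundant members per list, Duxf3, Zfp352 and the Zscan4 genes. Members and the 37 lists were chosen with earlier results of these data known. Other genes named were picked after their values were seen. Some single-gene results are not reported here. Tools were Python 3.11.15, numpy, pandas and matplotlib.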

Additional observations from a re-analysis of the deposited data

How the results depend on the processing

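Counts of called genes depended on the filter, the scale and single libraries. Against 1091 higher and 763 lower genes, leaving out the filter gave 613 and 336, voom with library totals 671 higher, and voom with median-ratio size factors 581 higher. Without 1 library at a time the counts ranged from 0 to 591 higher and from 0 to 902 lower. A fit of 3 libraries has 1 residual degree of freedom and assumes that the lone library varies like the others. No called gene changed sign under any of the 12 alternatives, but the libraries of every called gene did not overlap between stages. Another filter, another pseudocount or leaving out a library could therefore not reverse a sign, so this says little about robustness. Of the 94 named genes called, between 77 and 94 stayed called in the fits on 4 libraries and between 0 and 26 in the fits on 3. Genes over 2-fold higher between columns numbered 3060, or 1690 with a pseudocount of 5, and those over 2-fold lower 3015, or 1328 with a pseudocount of 5 and 1719 at a minimum of 5 FPKM. With only bases before the start, the shares of windows with a motif fell to 19.1% (ETS, higher), 12.0% (ETS, lower), 53.4% (SP and KLF, higher), 1.397% (YY1, higher) and 0.777% (YY1, lower). Of 480 list medians recomputed, 361 stayed within the spread over library pairs. Leaving out the filter left the list medians as they were, and centring shifted all of them by the same small amount. The spread was taken from the same libraries, so this count says little about robustness. No paired analysis was possible because the separated libraries carry no replicate number.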
